A study of Mus musculus with 2 samples.

Results

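The nuclei described here are those that the authors annotated as excitatory neurons in single-nucleus RNA sequencing of hippocampus from old male mice. Every gene of the authors' deposited excitatory neuron table was taken, which makes 6013 genes, of 10596 genes listed in any of the 9 cell type tables. The GWI group, named for a model of Gulf War Illness, was injected intraperitoneally at 10 weeks of age with 0.7 mg/kg pyridostigmine bromide, a carbamate inhibitor of cholinesterases, and 200 mg/kg permethrin, a pyrethroid insecticide that holds sodium channels open. It received these daily for 10 days and was killed at 19 months. The control group received vehicle on the same schedule. All mice are given as C57BL/6J in the series description, while the genotype label reads C57/BL7 for GWI and C57/BL6 for control. Hippocampi of 3 mice were pooled in each group into 1 library, so that no mouse can be told from another. There is therefore no replicate spread and no test, and every difference below is a difference between 1 GWI library and 1 control library. The headers number the compared groups without naming them, and the reading that positive values mean higher in GWI rests on GWI being named before control in the label of the comparison.

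Excitatory neurons of the hippocampus release glutamate, which they load into vesicles with the transporter encoded by Slc17a7. Glutamate opens AMPA and NMDA receptors on dendritic spines, where scaffold proteins hold the receptors beside calcium-dependent and cyclic nucleotide-dependent enzymes. Granule cells of the dentate gyrus and pyramidal cells of the CA fields form the main relay of the hippocampus, and this circuit is known for its part in memory.

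The difference between the libraries was small for most genes. Of the 6013 genes in the authors' deposited table, 3142 (52.3%) were higher and 2871 (47.7%) lower in the GWI library. Their log2 fold changes ranged over -0.76 to 0.98, and the median was 0.058. A log2 fold change of at least 0.5 was used as a rule of size, and 83 genes (1.38%) were higher and 46 (0.765%) lower by that much, together 129 (2.15%). At 0.25 these were 608 (10.1%) and 526 (8.75%) genes, and no gene reached 1. Centring on the median of the table turned the split at 0.5 round, to 51 higher and 91 lower genes. Predicted genes, clone names and mitochondrially encoded genes, which were 375 of the 6013, made up 50 of the 83 higher and 3 of the 46 lower genes. The other 5638 genes held 33 of the higher and 43 of the lower ones. The table lists only genes that differed by 0.05 or more on the log2 scale, in either direction. They also had a detection of 10% or more in at least 1 library. A count over listed genes is therefore never a count over all members of a gene family. A gene under 10% in 1 library was listed only through the other, so its direction of detection was fixed in advance.

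Most genes were detected in a larger share of GWI nuclei. The median detection was 27.3% of GWI nuclei and 24.6% of control nuclei, and 4808 genes (80.0%) were found in more GWI nuclei. That set included 1687 genes whose log2 fold change was below 0. In the other tables, made from the same libraries, the share found in more GWI nuclei was 67.4% for astrocytes, 67.4% for microglia, 66.9% for the group named Other, 64.3% for oligodendrocyte precursors, 53.2% for oligodendrocytes, 50.5% for inhibitory neurons, 45.2% for pericytes and 42.1% for endothelial cells. Neither how many nuclei were counted nor their molecules could be read from the tables or labels, and the part of sequencing depth in these shares was not tested.

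**Figure D1:**
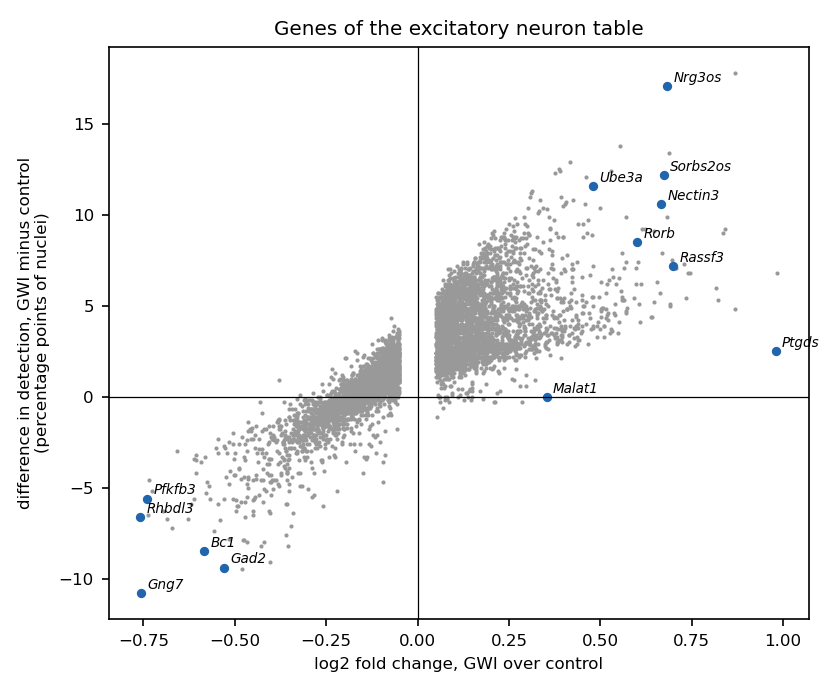
Each point is a gene of the excitatory neuron table, with its log2 fold change of GWI over control on the x axis and the difference in the percentage of nuclei with the gene detected, GWI minus control, on the y axis. The gap around 0 on the x axis is the deposited minimum of 0.05, and many points left of it lie above the horizontal line.

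The log2 fold change also ran with gene length, and gene length with detection. In 5 bins of gene length the median log2 fold change was 0.12, 0.09 and 0.07 in the 3 shorter bins, then -0.09 and -0.11 in the 2 longer ones. The share of genes that were higher was 71.7% in the shortest bin and 29.4% in the longest. Spearman's rho across genes was -0.35 between log2 fold change and length (n = 5853 genes) and 0.59 between mean detection and length. Genes are not independent replicates, and all points share the same libraries. The medians of gene lists are therefore given below also after the median of each gene's length bin was subtracted, a value called length-centred here. For many lists the median is also given after the median of the same gene over the other cell types was subtracted (up to 6 tables, with endothelial cells and pericytes left out). For 26 of 49 lists the sign of the median turned under that subtraction. Taken from the log2 ratio of the detected fractions in place of the deposited fold change, the median turned its sign for 21 of 49 lists. Among lists described as lower, these were CA1 genes, AMPA receptors, protein kinase C, calmodulin kinases, G proteins, calcium release, monoamine and peptide receptors, vesicle genes, axon guidance, chaperones, glycolysis, cytoskeletal, immediate early and clock genes and ribosomal proteins. All 21 turned from below to above 0, in a table where 80.0% of genes were found in more GWI nuclei. The ratio was not centred on its value over all genes, so its sign alone does not contradict a lower fold change. Counts of higher and lower members stand against 52.3% and 47.7% of all genes.

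**Figure D2:**
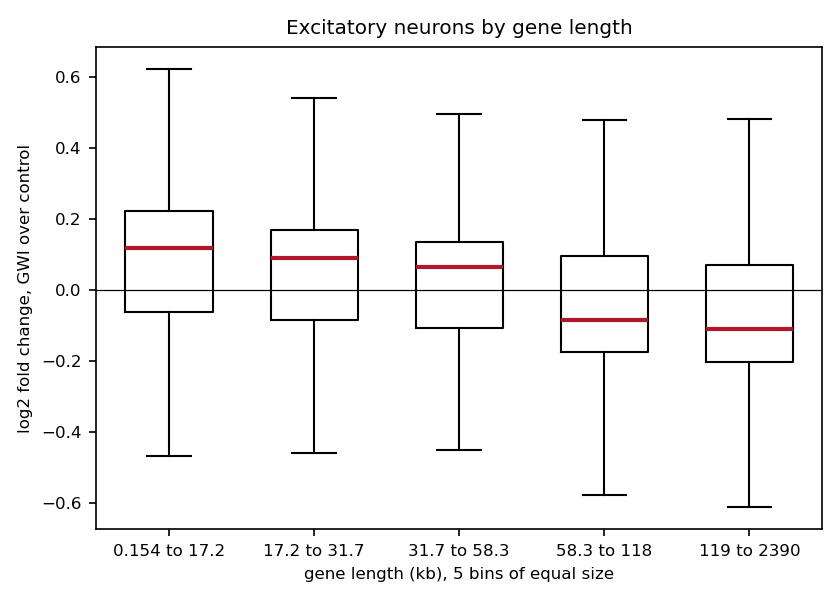
Box plots show the log2 fold change of GWI over control in 5 bins of gene length (kb), each with about 1170 genes, where boxes span the quartiles, red lines are medians and whiskers reach 1.5 times the box. The medians lie above 0 in the 3 bins of shorter genes and below 0 in the 2 bins of longer genes.

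The label of the nuclei was checked against markers. Slc17a7, which encodes the vesicular glutamate transporter, was detected in 67.6% of GWI and 60.5% of control nuclei (log2 fold change 0.12). Camk2a, a kinase of excitatory synapses, was detected in 93.5% of GWI and 94.0% of control nuclei (-0.19). Neurod6, a transcription factor of pyramidal neurons, was detected in only 15.2% of GWI and 12.7% of control nuclei (0.24). The first 2 markers were thus present in most nuclei and the last in a minority. Camk2a was also detected in 80.3% of GWI and 82.6% of control inhibitory neuron nuclei. In astrocyte nuclei it was in 62.2% of GWI and 63.4% of control, and in the group named Other in 100% of both, so it does not set these nuclei apart. Tbr1, a transcription factor of glutamatergic neurons of the forebrain, was at 0.25, and Neurod2 was at 0.10. Of 6 listed excitatory markers 5 were higher in GWI, with a median of 0.16, or 0.06 length-centred. Slc17a7 was also detected in 47.8% of GWI and 47.9% of control astrocyte nuclei, which should lack it, and in 89.5% of GWI and 89.3% of control nuclei of the group named Other. The share of Slc17a7 in excitatory nuclei stood above that in astrocyte nuclei, while that of the group named Other was higher still.

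Markers of inhibitory neurons were detected in these nuclei and were mostly lower in the GWI library. Gad2, which encodes a glutamate decarboxylase that makes GABA, was detected in 29.5% of GWI and 38.9% of control nuclei (-0.53), against 61.5% of GWI and 59.8% of control nuclei in the inhibitory neuron table. Gad1, the other glutamate decarboxylase gene, was in 27.9% of GWI and 33.6% of control nuclei (-0.45). Slc32a1, the vesicular GABA transporter gene, was in 10.4% of GWI and 12.5% of control nuclei (-0.31). The control library thus held the larger share of nuclei with each of these 3 transcripts. Dlx6os1, a noncoding RNA of the Dlx locus, was at -0.43, the RNA-editing family gene Adarb2 at -0.38, Reln, which encodes reelin, at -0.36 and the neuregulin receptor gene Erbb4 at -0.23. Cnr1, the cannabinoid receptor gene, was at 0.07 and the potassium channel gene Kcnc2 at 0.25. Of 10 listed inhibitory markers 8 were lower, with a median of -0.37, or -0.35 length-centred and -0.12 with other cell types subtracted. In astrocytes 1 of 9 listed members was higher (median -0.35), and in the group named Other 2 of 8 (median -0.35). In inhibitory neurons 11 of 12 were higher (median 0.26).

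Genes typical of projection neurons of the striatum, a list put together after the values had been seen, were also lower. Of 19 listed genes 17 were lower in GWI, with a median of -0.34 (length-centred -0.29). Of the 19, 2 were detected in more GWI nuclei, against 80.0% of all genes. Rgs9, a regulator of G protein signalling, was in 39.7% of GWI and 49.2% of control nuclei (-0.48). Bcl11b, a transcription factor of striatal and also of dentate and deep cortical neurons, was in 52.1% of GWI and 61.2% of control nuclei (-0.41). Drd2, the dopamine D2 receptor gene, was in 13.5% of GWI and 17.9% of control nuclei (-0.52). In the inhibitory neuron table, Rgs9 was at -0.55 and Bcl11b at -0.26. With other cell types subtracted, the median of this list was -0.015. The part of inhibitory or striatal RNA in the gene lists below was not tested.

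Markers of glia went both ways. Of the oligodendrocyte markers, Ptgds, which encodes prostaglandin D2 synthase, was in 11.8% of GWI and 9.3% of control nuclei (0.98). Mbp, which encodes myelin basic protein, was in 42.2% of GWI and 45.9% of control nuclei (-0.38), and Mobp was at -0.39. Apod (0.21) and Trf (0.05) were higher, and Prr5l (-0.09) and St18 (-0.26) lower. The 8 listed oligodendrocyte markers had a median of -0.02. Of the astrocyte markers, Clu (0.14), Slc1a2 (0.07) and Apoe (0.05) were higher, and Slc4a4 (-0.09), Gpc5 (-0.20) and Mertk (-0.33) lower. The precursor markers Lhfpl3, Tnr and Xylt1 were at -0.26, -0.12 and -0.08, and the microglial marker P2ry12 at 0.08. None of 15 vascular and meningeal markers was listed.

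**Figure D3:**
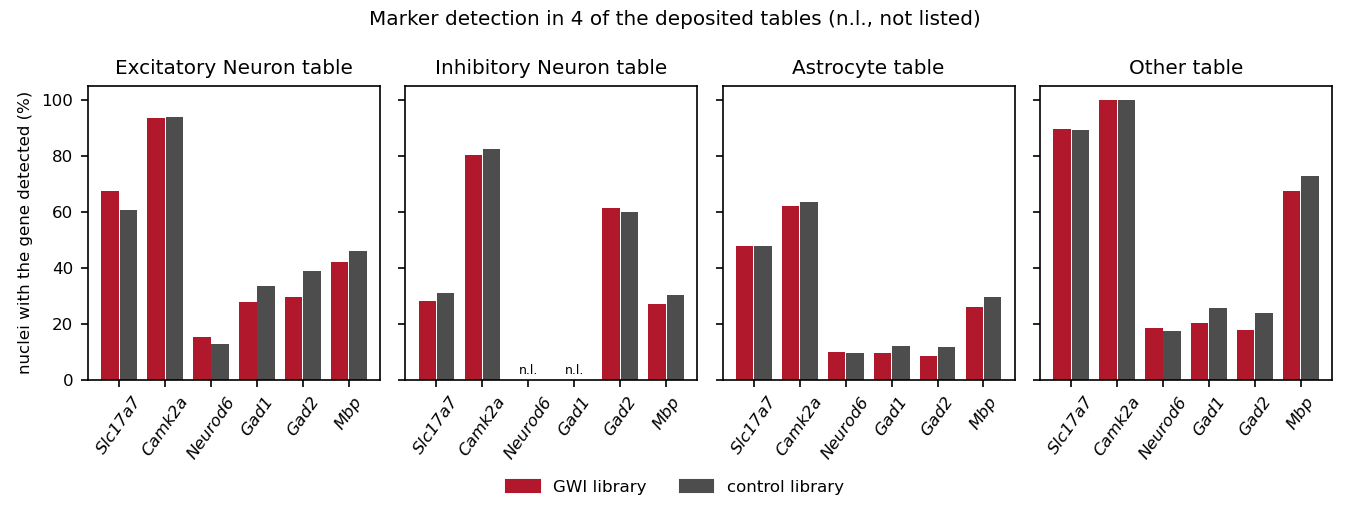
Bars give the percentage of nuclei with a marker detected in the GWI library (red) and the control library (grey) in the tables of excitatory neurons, inhibitory neurons, astrocytes and the group named Other. Gad1 and Gad2 are lower in GWI than in control nuclei of the excitatory neuron table, and Slc17a7 is detected in all 4 tables.

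The 15 genes ranked highest in the excitatory neuron table lay between 0.56 and 0.98, with Ptgds at the top. Ptgds was also higher in oligodendrocytes (0.57), astrocytes (0.61), endothelial cells (2.35) and the group named Other (0.13). Hs3st1, a heparan sulfate sulfotransferase gene, was detected in 17.8% of GWI and 10.7% of control nuclei (log2 fold change 0.71). Nectin3, an adhesion molecule of synaptic junctions, was in 40.2% of GWI and 29.6% of control nuclei (0.67). Rorb, an orphan nuclear receptor gene, was in 48.0% of GWI and 39.5% of control nuclei (0.60). All 3 were thus found in more GWI nuclei. Rassf3, of the Ras association domain family, was at 0.70, Lama4, a laminin subunit gene, at 0.65, the sialomucin gene Cd34 at 0.59 and H2az1, which encodes a histone variant, at 0.56. The others of the 15 highest were Macrod2os1 (0.61), Dynlt2a2 (0.56), Asb13 (0.56) and an Ensembl identifier without a gene name (0.64), with 3 opposite-strand transcripts described below. Higher values stood among the genes left out of this ranking, such as the predicted genes Gm12371 (0.98) and Gm20642 (0.87).

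Of genes with a detection of 25% or more in both libraries, 5 were higher by 0.5 or more and 13 lower by as much. Ube3a, which encodes the ubiquitin ligase that is expressed from the maternal allele in neurons, was in 84.5% of GWI and 72.9% of control nuclei (0.48). Arhgap15, a Rac-directed GTPase activator, was in 52.3% of GWI and 39.9% of control nuclei (0.53). Rsrp1, an arginine and serine rich protein gene, was in 80.1% of GWI and 68.0% of control nuclei (0.46). Ube3a had a log2 fold change of 0.59 in inhibitory neurons and 0.55 in the group named Other, and Rsrp1 was at 0.49 and 0.54. Brinp3 (0.48), Srsf7 (0.42), the nuclear receptor gene Pparg (0.41) and Tmem59l (0.40) completed the 10 highest of these genes with Nrg3os, Nectin3 and Rorb. Pparg was at -0.22 in the group named Other.

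The 15 genes ranked lowest lay between -0.76 and -0.59. Rhbdl3, a rhomboid family gene, was detected in 14% of GWI and 20.6% of control nuclei (-0.76). Gng7, a G protein gamma subunit that is abundant in striatum, was in 30.9% of GWI and 41.7% of control nuclei (-0.76). Pfkfb3, which makes the activator of phosphofructokinase and so sets glycolytic flux, was in 14.6% of GWI and 20.2% of control nuclei (-0.74). Each was found in fewer GWI nuclei. Dpysl5, a collapsin response mediator gene, was at -0.73, Prkch, a calcium-independent protein kinase C gene, at -0.70, Vat1l at -0.69, the metabotropic glutamate receptor gene Grm4 at -0.67 and Ddah1, which degrades an inhibitor of nitric oxide synthesis, at -0.66. The rest of the 15 lowest were Syt6 (-0.63), Cacna2d2 (-0.62), Sh3rf2 (-0.61), Ntn1 (-0.61), Cbfa2t3 (-0.61), Myo5b (-0.61) and Tcerg1l (-0.59). Ddah1 and Ntn1 were detected in under 10% of GWI nuclei and so were listed only through the control library. In the inhibitory neuron table Rhbdl3 was at -0.26, Gng7 at -0.37 and Pfkfb3 at -0.46.

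Among the lowest of the genes detected in at least 25% of nuclei was Bc1, a short noncoding RNA of dendrites that represses translation. Bc1 was in 50.5% of GWI and 59.0% of control nuclei (-0.58), and it was at -0.60 in inhibitory neurons and -0.76 in astrocytes. Rbms3, an RNA-binding protein gene, was in 68.1% of GWI and 73.7% of control nuclei (-0.53). Abat, the enzyme that breaks down GABA, was in 31.0% of GWI and 38.8% of control nuclei (-0.52). Galnt9 (-0.58), Nhs (-0.57), Sgsm1 (-0.56), the ETS transcription factor gene Etv5 (-0.55) and the Rac regulator gene Chn2 (-0.54) were the others, with Gng7 and Gad2.

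**Figure D4:**
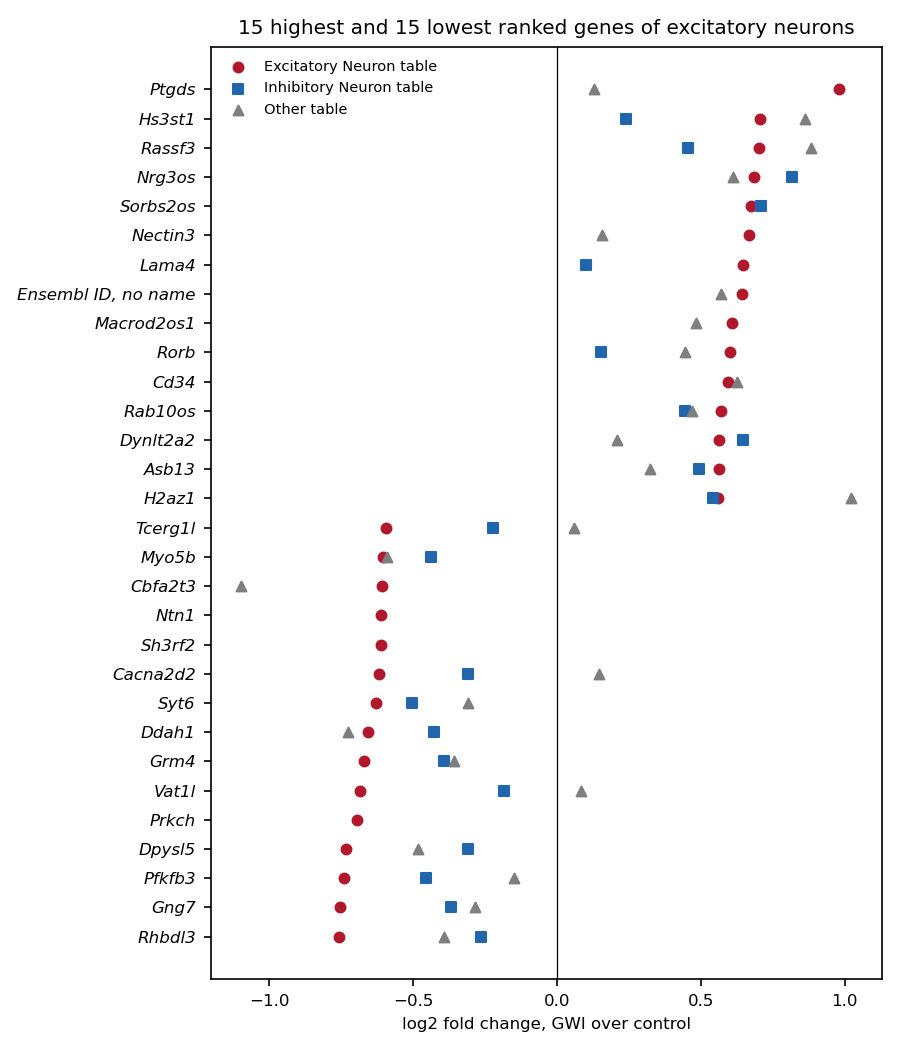
Points give the log2 fold change of GWI over control for the 15 highest (above) and 15 lowest (below) ranked genes of the excitatory neuron table (circles), and for the same genes in the inhibitory neuron (squares) and Other (triangles) tables where listed. Ptgds is highest at 0.98 and Rhbdl3 lowest at -0.76, and a missing symbol means that the gene is not listed in that table.

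Subunits of glutamate receptors went both ways, while the proteins that accompany AMPA receptors were among the lower ones. Gria1, which encodes the AMPA receptor subunit GluA1, was detected in 95.7% of GWI and 96.0% of control nuclei (log2 fold change -0.30). Gria2, which makes AMPA receptors impermeable to calcium, was in 97.9% of the nuclei of each library (0.15). Cacng8, an auxiliary subunit typical of hippocampus, was in 30.2% of GWI and 34.8% of control nuclei (-0.45). Nearly all nuclei had Gria1 and Gria2, so their detection shares do not separate the libraries. Gria3 was at 0.09 and Gria4 at 0.22. Of the auxiliary proteins, Cacng4 was at -0.46, Cacng2 at -0.40, Shisa9 at -0.40, Gsg1l at -0.21, Cacng7 at -0.20, Shisa7 at -0.19, Cacng3 at -0.14, Shisa6 at -0.10, Cnih3 at -0.09 and Cnih2 at 0.20. Olfm2 was at -0.11 and Olfm1 at 0.09. Nptxr, a receptor for the secreted pentraxins that cluster AMPA receptors, was at 0.06, the pentraxin gene Nptx1 at 0.21 and Porcn, an acyltransferase gene, at 0.25. Over 20 listed members 8 were higher, against 52.3% of all genes, with a median of -0.11, which was -0.03 length-centred and 0.06 with other cell types subtracted.

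Of the NMDA receptor genes, Grin1, the obligatory subunit, was in 81.7% of GWI and 77.2% of control nuclei (0.07) and Grin3a was at -0.18. All 8 listed kainate and delta receptor genes were lower, against 47.7% of all genes, with a median of -0.15. The median was -0.06 length-centred, -0.034 with other cell types subtracted and -0.004 with detected fractions. Of the 8 genes 4 were found in more GWI nuclei, against 80.0% of all genes, and in inhibitory neurons 4 of 8 were higher. Grik3 had the lowest value, in 47.6% of GWI and 52.5% of control nuclei (-0.32). Grik5 was at -0.22, Grid1 at -0.21, the auxiliary subunit gene Neto1 at -0.17, Grik4 at -0.14, Grik2 at -0.10 and Grik1 at -0.06. These genes had a median length of 411 kb, which puts them among the longest. Of 5 metabotropic receptor genes, Grm2 was in 12.3% of GWI and 9.0% of control nuclei (0.51) and Grm4 in 23.4% of GWI and 30.6% of control nuclei (-0.67). Grm8 and Grm3 were at 0.10 each and Grm5 at -0.06.

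Postsynaptic scaffold genes were mostly lower. Of 26 listed members 5 were higher and 11 were lower by at least 0.25, against 8.75% of all genes, with a median of -0.19 (length-centred -0.16). Dlg4, which encodes the scaffold PSD-95, was in 45.7% of GWI and 50.3% of control nuclei (-0.39). Shank1, a scaffold deeper in the postsynaptic density, was in 50.1% of GWI and 52.4% of control nuclei (-0.40). Grip1, which binds AMPA receptors, was in 79.5% of GWI and 83.1% of control nuclei (-0.44). These 3 were found in fewer GWI nuclei, though most genes were found in more. Begain (-0.40), Dlgap4 (-0.36) and Dlgap3 (-0.33) were the other members with the largest values. In inhibitory neurons 3 of 26 listed members were higher, with a median of -0.20, and with other cell types subtracted the median in excitatory neurons was 0.021.

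Genes of cyclic nucleotide signalling and of G proteins were also lower for the most part. Of 20 genes of cyclic nucleotide signalling 14 were lower, with a median of -0.20 (length-centred -0.13, and 0.015 with other cell types subtracted). Adcy5, an adenylyl cyclase abundant in striatum, was in 52.8% of GWI and 60.8% of control nuclei (-0.42). Pde1c, a phosphodiesterase activated by calmodulin, was in 32.7% of GWI and 40.9% of control nuclei (-0.43). The phosphodiesterase genes Pde4a, Pde1b and Pde2a were at -0.41 each and Pde10a at -0.31. No listed member was higher by 0.25, against 10.1% of all genes, and 7 were lower by it, against 8.75%. Of 27 G protein and RGS genes 19 were lower, with a median of -0.13 (length-centred -0.09, and 0.001 with other cell types subtracted), among them Rgs20 (-0.41), Gng4 (-0.40), Gnal, the G protein alpha subunit of olfactory and striatal neurons (-0.40), and Gnb5 (-0.33).

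Protein kinase C and diacylglycerol genes had 16 of 18 members lower, with a median of -0.16 (length-centred -0.08, and 0.012 with other cell types subtracted). The diacylglycerol kinase gene Dgkg was in 54.5% of GWI and 57.5% of control nuclei (-0.36), Prkch was at -0.70, Prkce at -0.31 and Rasgrp2 at -0.29. Calmodulin kinases and calcineurin had 11 of 16 members lower, with a median of -0.11 (length-centred -0.09, and 0.075 with other cell types subtracted). Camk2b, the partner of Camk2a in the holoenzyme, was in 82.5% of GWI and 83.8% of control nuclei (-0.25), the calcium sensor gene Hpca was at -0.27 and Camkk1 at -0.27. Ppp3cb, a catalytic subunit gene of calcineurin, was at 0.19 and the calmodulin gene Calm2 at 0.18.

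Of the voltage-gated calcium channel genes 12 of 13 were lower, and their median was -0.19 (length-centred -0.09, and 0.013 with other cell types subtracted). Cacna2d2, an auxiliary subunit gene, was in 18.4% of GWI and 24.3% of control nuclei (-0.62). Cacna1h, a T-type pore subunit gene, was in 12.2% of GWI and 16.1% of control nuclei (-0.49). Cacna1c, the main L-type pore subunit gene of neurons, was in 93.5% of GWI and 93.6% of control nuclei (-0.20). The first 2 were seen in fewer GWI nuclei and the last in almost the same share. Cacnb1 (-0.23), Cacnb3 (-0.22), Cacnb2 (-0.21), Cacna1g (-0.19), Cacna1e (-0.18), Cacna2d3 (-0.17), Cacna1b (-0.11), Cacna1i (-0.08) and Cacnb4 (-0.06) were lower too, and Cacna2d1, a subunit bound by gabapentin, was higher (0.22). The same list had 1 of 13 members higher in the inhibitory neuron table and 0 of 10 in the astrocyte table. Genes of calcium release and extrusion had 12 of 13 members lower, with a median of -0.13 (length-centred -0.05, and 0.049 with other cell types subtracted). Of these, the ryanodine receptor gene Ryr3 was in 74.9% of GWI and 80.1% of control nuclei (-0.35) and Ryr1 was at -0.44.

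Sodium channels, on which permethrin acts, had small values in the authors' deposited table. Scn2a, the main channel of excitatory neurons, was in 92.8% of GWI and 91.3% of control nuclei (0.10). Scn1a was in 85.6% of GWI and 82.9% of control nuclei (0.09), and Scn8a in 89.3% of GWI and 88.4% of control nuclei (-0.05). No listed member reached 0.25 in size, which most genes did not, as 10.1% of all genes were higher and 8.75% lower by that much. The auxiliary gene Scn2b was at 0.06, Scn3b at -0.20 and the channel partner gene Fgf13 at -0.17. The median of the 7 genes was 0.06, or -0.05 length-centred.

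Of 15 cholinergic receptor and cholinesterase genes, the system on which pyridostigmine acts, 3 were listed. Chrm3, a muscarinic receptor gene coupled to phospholipase C, was in 78.4% of GWI and 73.0% of control nuclei (0.26). Chrm2, a muscarinic receptor gene coupled to inhibitory G proteins, was in 38.3% of GWI and 34.7% of control nuclei (0.07). Chrna7, a nicotinic receptor subunit gene, was in 36.3% of GWI and 36.8% of control nuclei (-0.13). The other genes of that list were not in the table.

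Potassium channel genes divided, with 15 higher and 19 lower members and a median of -0.05 (length-centred 0.02, and 0.085 with other cell types subtracted). Kcnv1, a silent subunit that modifies Kv2 channels, was in 30.5% of GWI and 21.5% of control nuclei (0.46). Kcnip1, a calcium-binding partner of Kv4 channels, was in 18.2% of GWI and 23.1% of control nuclei (-0.57). Kcnn3, a calcium-activated channel gene, was at -0.45 and Kcnh4 at -0.37. Of 8 HCN and TRP channel genes 5 were higher, with a median of 0.07 (-0.091 with other cell types subtracted), including Trpc6 (0.33) and Trpc1 (0.19), and Trpm3 was at -0.32. GABA-A receptor genes had 5 of 9 members higher, with a median of 0.07. The beta subunit gene Gabrb2 was in 89.2% of GWI and 86.0% of control nuclei (0.18). The alpha subunit gene Gabra3 was at 0.11, Gabrg3 at -0.23 and the anchoring protein gene Gphn at -0.11.

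Receptors for monoamines, opioids, peptides and cannabinoids had 6 of 18 members higher, with a median of -0.07 (length-centred -0.11, and 0.108 with other cell types subtracted). Npy1r, a neuropeptide Y receptor gene, was in 17.8% of GWI and 12.1% of control nuclei (0.42). Htr4, a serotonin receptor gene, was in 15.2% of GWI and 19.9% of control nuclei (-0.58). Adora1, the adenosine A1 receptor gene, was in 19.7% of GWI and 21.1% of control nuclei (-0.31). Htr2c was at -0.22 and Adra1a at -0.26.

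At the presynaptic side, vesicle and release genes had 29 of 44 members lower, with a median of -0.11 (length-centred -0.05, and 0.065 with other cell types subtracted). Sv2c, a vesicle glycoprotein gene, was in 34.0% of GWI and 40.4% of control nuclei (-0.40). Unc13c, a vesicle priming gene, was in 37.5% of GWI and 45.7% of control nuclei (-0.36). Dnm1, the GTPase that cuts endocytic vesicles, was in 63.2% of GWI and 65.0% of control nuclei (-0.31). Syt3 was at -0.33 and Rab3c at -0.28.

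Of 41 synaptic adhesion genes 22 were higher, a share near the 52.3% of all genes, and the median was 0.06 (length-centred 0.03, 0.048 with other cell types subtracted, and -0.004 among members with a detection of 25% or more in both libraries). Nectin3 had the largest value (0.67). Ptprd, a receptor phosphatase that organizes presynaptic sites, was in 99.2% of GWI and 99.5% of control nuclei (0.28). Slitrk1, a postsynaptic adhesion gene, was in 38.1% of GWI and 29.9% of control nuclei (0.27), and Flrt2, a ligand of latrophilins, in 80.2% of GWI and 74.1% of control nuclei (0.27). Cntnap5c was at -0.36 and Nectin1 at -0.27. Cadherins and protocadherins had 11 of 18 members higher, with a median of 0.10 (length-centred 0.19), and their median length was 180 kb. Cdh6, a type II cadherin gene, was in 45.5% of GWI and 36.7% of control nuclei (0.40), Cdh12 in 82.9% of GWI and 77.6% of control nuclei (0.40), and Cdh4 in 44.8% of GWI and 49.3% of control nuclei (-0.46).

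Axon guidance genes had 27 of 41 members lower, with a median of -0.12 (length-centred -0.10, and 0.019 with other cell types subtracted). Ntn1, the guidance cue netrin-1, was in 8.7% of GWI and 12.1% of control nuclei (-0.61), and the semaphorin gene Sema5b was at -0.47. The semaphorin receptor gene Nrp2 was at -0.36, and Robo3, a member of the Slit receptor family, at 0.39. Of 9 neuregulin and neurotrophin genes 7 were lower, with a median of -0.22 (length-centred -0.11, and 0.026 with other cell types subtracted). The BDNF receptor gene Ntrk2 was in 93.6% of GWI and 93.6% of control nuclei (-0.22), Ntrk3 was at -0.22, the sortilin family gene Sorcs2 at -0.47 and Nrg2 at -0.26. Fgfr2 was at 0.17.

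Genes of the endoplasmic reticulum (ER) and the secretory pathway were higher in 24 of 25 cases, against 52.3% of all genes, with a median of 0.18. Of these, 9 were higher by at least 0.25, against 10.1% of all genes, and 24 were detected in more GWI nuclei, against 80.0%. Ssr4, a subunit of the translocon-associated complex, was in 17.4% of GWI and 11.9% of control nuclei (0.48). Spcs1, a signal peptidase subunit gene, was in 11.5% of GWI and 7.6% of control nuclei (0.48). Tmed2, a cargo receptor of transport vesicles, was in 23.5% of GWI and 16.7% of control nuclei (0.39). All 3 were found in more GWI nuclei, at shares below 25%. Spcs1, and Dnajb9 of the same list, were under 10% in control nuclei. They were listed only through the GWI library, which fixed their direction of detection. Dnajb9, a cochaperone induced by unfolded proteins, was at 0.41, Tmed4 at 0.35 and Tmed7 at 0.33, and Sec24d alone was lower (-0.11). These are short genes, with a median length of 11.6 kb, and the length-centred median was 0.10. In inhibitory neurons 20 of 22 listed members were higher, with a median of 0.27, and with other cell types subtracted the median in excitatory neurons was -0.087.

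Heat shock proteins and chaperones went the other way, with 14 of 19 members lower and a median of -0.12 (length-centred -0.19, and 0.006 with other cell types subtracted). Hsp90aa1, the inducible cytosolic HSP90, was in 45.3% of GWI and 46.7% of control nuclei (-0.29). Hsph1, a helper of the cytosolic Hsp70 chaperones, was in 38.4% of GWI and 41.2% of control nuclei (-0.31), and the chaperonin subunit genes Cct5 and Cct4 were at -0.25 and 0.22. A few genes of both lists are textbook targets of the unfolded protein response through the ER stress response element, spelled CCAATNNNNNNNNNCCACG. Both strands of the 250 bases before each start in the RefSeq promoter windows were searched for it, and a gene with several starts counted once. It was found in 35 of 27025 genes (0.13%), in 7 of 4649 genes of the table with a window (0.151%), in 1 of 22 ER and secretory genes and in 3 of 15 chaperone genes. The stretches that hold it in those 4 genes are shown with the match in capitals, since their values can be set beside a shared element. They lie in GRCm38.p6 at chr12:17266471-17266529 (plus strand, Pdia6), chr2:34772005-34772063 (plus, Hspa5), chr10:86705618-86705676 (minus, Hsp90b1) and chr14:118937807-118937865 (plus, Dnajc3).
Pdia6: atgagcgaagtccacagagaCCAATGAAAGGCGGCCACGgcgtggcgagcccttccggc
Hspa5: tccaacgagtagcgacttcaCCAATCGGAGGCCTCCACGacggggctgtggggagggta
Hsp90b1: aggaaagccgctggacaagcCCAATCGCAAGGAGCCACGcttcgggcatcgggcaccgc
Dnajc3: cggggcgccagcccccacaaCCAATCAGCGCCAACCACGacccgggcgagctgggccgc

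Hspa5, which encodes the ER chaperone BiP, was in 53.5% of GWI and 48.9% of control nuclei (0.11). Hsp90b1, the HSP90 of the ER, was in 65.7% of GWI and 60.0% of control nuclei (0.15), and the disulfide isomerase gene Pdia6 in 33.3% of GWI and 30.1% of control nuclei (0.06). Dnajc3, which encodes an ER cochaperone, was in 25.6% of GWI and 25.1% of control nuclei (-0.12). Of the 4 genes with the element, 3 were thus higher and 1 lower.

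Lysosome and autophagy genes were higher in 19 of 24 cases, against 52.3% of all genes, with a median of 0.12. Of these, 6 were higher by at least 0.25, against 10.1% of all genes, and 22 of the 24 were found in more GWI nuclei, against 80.0%. Ctsl, which encodes the protease cathepsin L, was in 17.0% of GWI and 11.5% of control nuclei (0.48). Atp6v0b, a subunit gene of the proton pump that acidifies lysosomes, was in 73.0% of GWI and 60.7% of control nuclei (0.38), and Atp6v0c, of the same pump, in 69.1% of GWI and 59.8% of control nuclei (0.36). Lamp1, a lysosomal membrane protein gene, was in 42.1% of GWI and 33.9% of control nuclei (0.28). All 4 were found in more GWI nuclei. Neu1, a lysosomal sialidase gene, was at 0.33 and the tetraspanin gene Cd81 at 0.30. The length-centred median was 0.02 and the median with other cell types subtracted -0.066. Ctsl was at 0.73 in inhibitory neurons and 1.32 in microglia.

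Lysosomal genes often carry an element bound by the transcription factor TFEB, searched here as GTCACGTG, which contains the commoner E-box CACGTG. It was found in the same way, on either strand, in 571 of 27025 genes with a promoter window (2.11%). The match was in 201 of 4649 genes of the table (4.32%) and in 4 of 17 lysosome and autophagy genes with a window. The stretches around the match, in capitals, are shown for those 4 genes because their values differ in sign. In Lamp1 and Ctsd the match reads as the reverse complement. They lie in GRCm38.p6 at chr8:13159113-13159160 (plus, Lamp1), chr4:117887340-117887387 (minus, Atp6v0b), chr8:3500426-3500473 (plus, Mcoln1) and chr7:142388045-142388077 (minus, Ctsd).
Lamp1: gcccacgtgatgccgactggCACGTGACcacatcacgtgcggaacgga
Atp6v0b: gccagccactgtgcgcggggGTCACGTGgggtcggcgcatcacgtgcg
Mcoln1: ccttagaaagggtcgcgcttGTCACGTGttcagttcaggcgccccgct
Ctsd: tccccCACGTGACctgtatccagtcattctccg

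Beside Atp6v0b and Lamp1, given above, Mcoln1, a lysosomal calcium channel gene, was in 16.3% of GWI and 15.1% of control nuclei (-0.06). Ctsd, which encodes cathepsin D, was in 17.2% of GWI and 17.4% of control nuclei (-0.20). Of the 4 genes with the match, 2 were thus higher and 2 lower.

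Of the glycolysis genes 12 of 15 were lower. Their median was -0.15, although they are short (median 22.8 kb), and the length-centred median was -0.25. Below Pfkfb3, the pyruvate kinase gene Pkm was in 35.1% of GWI and 37.6% of control nuclei (-0.33), and Gpi1, of the second step, in 49.9% of GWI and 53.4% of control nuclei (-0.31). Gapdh was in 21.1% of GWI and 22.7% of control nuclei (-0.29). Aldoa was at -0.21 and Eno2 at -0.20. The median with other cell types subtracted was 0.086.

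Nuclear genes of oxidative phosphorylation were higher in 20 of 26 cases, with a median of 0.09, but -0.03 length-centred and -0.051 with other cell types subtracted. Cox7b, a subunit gene of cytochrome c oxidase, was in 25.5% of GWI and 18.1% of control nuclei (0.44), and Cox5a, of the same complex, was at 0.30 and Ndufa4 at 0.28. Of 7 mitochondrially encoded genes 5 were lower, with a median of -0.20. The genes mt-Atp8 (-0.43) and mt-Nd5 (-0.25) were among them, while mt-Nd3 was in 15.3% of GWI and 11.5% of control nuclei (0.43). Of the ribosomal protein genes 27 of 34 were lower, against 47.7% of all genes, and their median was -0.14. With detected fractions the median was 0.035, and 21 of the 34 were found in more GWI nuclei, against 80.0% of all genes. In inhibitory neurons 15 of 25 listed members were higher, with a median of 0.12. These are short genes (median 3.88 kb), and the length-centred median was -0.26. Rpl13a was in 13.9% of GWI and 15.2% of control nuclei (-0.31), Rps29 in 10.7% of GWI and 10.8% of control nuclei (-0.33). Except for Rps14, Rpl6 and Rpl5, singled out here by their detection, these were found in under 20% of the nuclei of each library, and such genes have many near-identical pseudogenes.

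Genes for RNA processing held some of the higher values among well detected genes. Of 38 splicing factor genes 25 were higher, with a median of 0.08 (length-centred 0.008). Srsf7, of the SR family, was in 49.1% of GWI and 36.2% of control nuclei (0.42), and Srsf5 of that family in 66.9% of GWI and 55.9% of control nuclei (0.31). Ptbp2, the neuronal polypyrimidine tract protein gene, was in 73.2% of GWI and 62.8% of control nuclei (0.30). Srsf2 was at 0.28 and Celf5 at -0.28. Long noncoding RNAs divided, with 9 of 19 higher and a median of -0.07. Malat1, a noncoding RNA kept in the nucleus, was in 100% of the nuclei of both libraries (0.35). Snhg20 was in 29.8% of GWI and 20.3% of control nuclei (0.45), Snhg12 was at 0.44 and Sox2ot at -0.42.

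Transcripts named as lying on the opposite strand of a gene were higher in 15 of 18 cases, against 52.3% of all genes, with a median of 0.33. Of the 18, 5 were higher by at least 0.5, against 1.38% of all genes. Among the 375 predicted genes, clones and mitochondrially encoded genes 262 were higher, 50 of them by at least 0.5, with a median of 0.14. Nrg3os, opposite the neuregulin gene Nrg3, was in 56.2% of GWI and 39.1% of control nuclei (0.68), while Nrg3 itself was at 0.14. Sorbs2os was in 34.6% of GWI and 22.4% of control nuclei (0.67), Rab10os in 21.2% of GWI and 13.8% of control nuclei (0.57) and Rapgef4os1 in 10.7% of GWI and 7.1% of control nuclei (0.53). Each of these 4 was thus found in more GWI nuclei, though Rapgef4os1 was listed only through the GWI library. Dlx6os1 (-0.43) was the lowest of the 18. Length-centred, the median was 0.21, and with other cell types subtracted 0.10. Among members with a detection of 25% or more in both libraries it was -0.032. The labels do not say how the authors' counting used strand, so reads of these transcripts and of their partner genes may not be told apart.

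Of 34 immediate early genes 9 were listed, and 5 of these were lower, against 47.7% of all genes. Their median was -0.11, and 0.022 with detected fractions. Of the 9, 6 were found in more GWI nuclei, against 80.0% of all genes. Egr1, a zinc finger transcription factor gene induced by activity, was in 28.2% of GWI and 32.0% of control nuclei (-0.37). Inhba, which encodes an activin subunit, was in 20.1% of GWI and 15% of control nuclei (0.35), and Plk2 was at 0.16. Rheb and Jund were at 0.08 each, and Nr4a3 (-0.20), Homer1 (-0.15) and Egr3 (-0.11) were lower. Circadian clock genes had 11 of 13 members lower, against 47.7% of all genes, with a median of -0.17 (length-centred -0.19, -0.032 with other cell types subtracted, and 0.014 with detected fractions). The largest value of that list was the other way, in Rorb, a nuclear receptor gene found in 48.0% of GWI and 39.5% of control nuclei (0.60). Per1, which is also an immediate early gene, was in 16.3% of GWI and 18.0% of control nuclei (-0.32), Per2 in 17.6% of GWI and 19.8% of control nuclei (-0.36), and Cry1 and Bhlhe41 were at -0.32 and -0.34. The labels give no hour of killing, and its part in these values was not tested. Of 8 glucocorticoid receptor genes and targets 6 were lower, with a median of -0.18 (length-centred -0.12, and -0.053 with other cell types subtracted). Zbtb16 was at -0.38 and Fkbp5, a chaperone of the receptor, in 21.5% of GWI and 22.9% of control nuclei (-0.23), and Errfi1 was at 0.22.

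Of the cytoskeletal list 24 of 33 genes were lower, with a median of -0.10 (length-centred -0.12, and 0.016 with other cell types subtracted). Map1a, which binds microtubules, was in 38.5% of GWI and 43.2% of control nuclei (-0.40), and Kif26b was at -0.44. The microtubule regulator gene Stmn3 was in 58.2% of GWI and 48.1% of control nuclei (0.33), Dcx, known for migrating young neurons, in 52.7% of GWI and 44.0% of control nuclei (0.27), and Stmn1 was at 0.26. Genes of amyloid, tau and neurodegeneration had 9 of 19 members higher and a median of -0.07, with Cdk5 and the secretase subunit gene Ncstn at 0.28 each and Lrrk2 at -0.23. Of 15 cholesterol and fatty acid genes 10 were higher, with a median of 0.13 (length-centred 0.04, and -0.080 with other cell types subtracted), among them Dhcr7 (0.19), Insig1 (0.18) and Cyp51 (0.18), with Elovl5 and Elovl6 at -0.22 each and the regulator gene Srebf2 at -0.20. Redox genes had 6 of 11 members higher (median 0.10, length-centred -0.02), with Selenow at -0.27 and Txnrd1 at -0.24. Inflammatory and interferon genes had 4 of 8 members higher (median -0.03), with the interferon receptor gene Ifnar2 at 0.23 and Jak2 at -0.21, and the list holds 38 genes in all.

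Markers of the dentate gyrus, CA1 and CA3 divided within each field. Of 14 dentate granule cell genes 8 were higher, with a median of 0.08 (length-centred 0.19). Calb1, which encodes calbindin, was in 27.9% of GWI and 21.5% of control nuclei (0.34), and Trpc6 in 30.1% of GWI and 25.2% of control nuclei (0.33). Glis3 was at 0.27, Stxbp6 at 0.15, Rfx3 at 0.13, Tll1 at 0.11, Lrrtm4 at 0.09 and Kcnip4 at 0.08. Pdzd2 (-0.47), Bcl11b (-0.41), Dock10 (-0.36), Sema5a (-0.27), Maml2 (-0.23) and Ahcyl2 (-0.08) were lower. Of 8 genes of CA1 pyramidal cells 5 were lower, with a median of -0.08: Man1a (-0.32), Wfs1 (-0.22), Crym (-0.18), Nrip3 (-0.11) and Mpped1 (-0.06). Zdhhc2 (0.10) and Pex5l (0.07) were among the higher ones.

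Of 9 genes of CA3 pyramidal cells 5 were higher, with a median of 0.12 (length-centred 0.02). These were Nectin3, Trhde, a peptidase gene found in 56.7% of GWI and 48.2% of control nuclei (0.34), Rnf182 (0.24), Coch (0.19) and Chgb (0.12). Cpne7 (-0.53), Grik4, Spock1 (-0.13) and Galntl6 (-0.09) were lower. Only 2 of 12 CA2 genes were listed, Necab2 (-0.58) and Pcp4 (-0.17). Of 9 mossy cell genes 2 were listed, Sv2b (-0.08) and Drd2 (-0.52), the latter given above as a striatal gene. All of these were lower, but both lists are under the minimum of 3 listed members. Of 8 genes of subicular and cortical projection neurons, Rorb, Rxfp1 (0.30), Ndst4 (0.21), Etv1 (0.10) and Tox (0.08) were higher, and Foxp2, also a striatal gene, was in 43.3% of GWI and 49.3% of control nuclei (-0.26). Tle4 was at -0.18 and Tshz2 at -0.12. The tables give no share of each field among the nuclei. More nuclei of a field and more RNA per nucleus cannot be told apart in these tables.

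**Figure D5:**
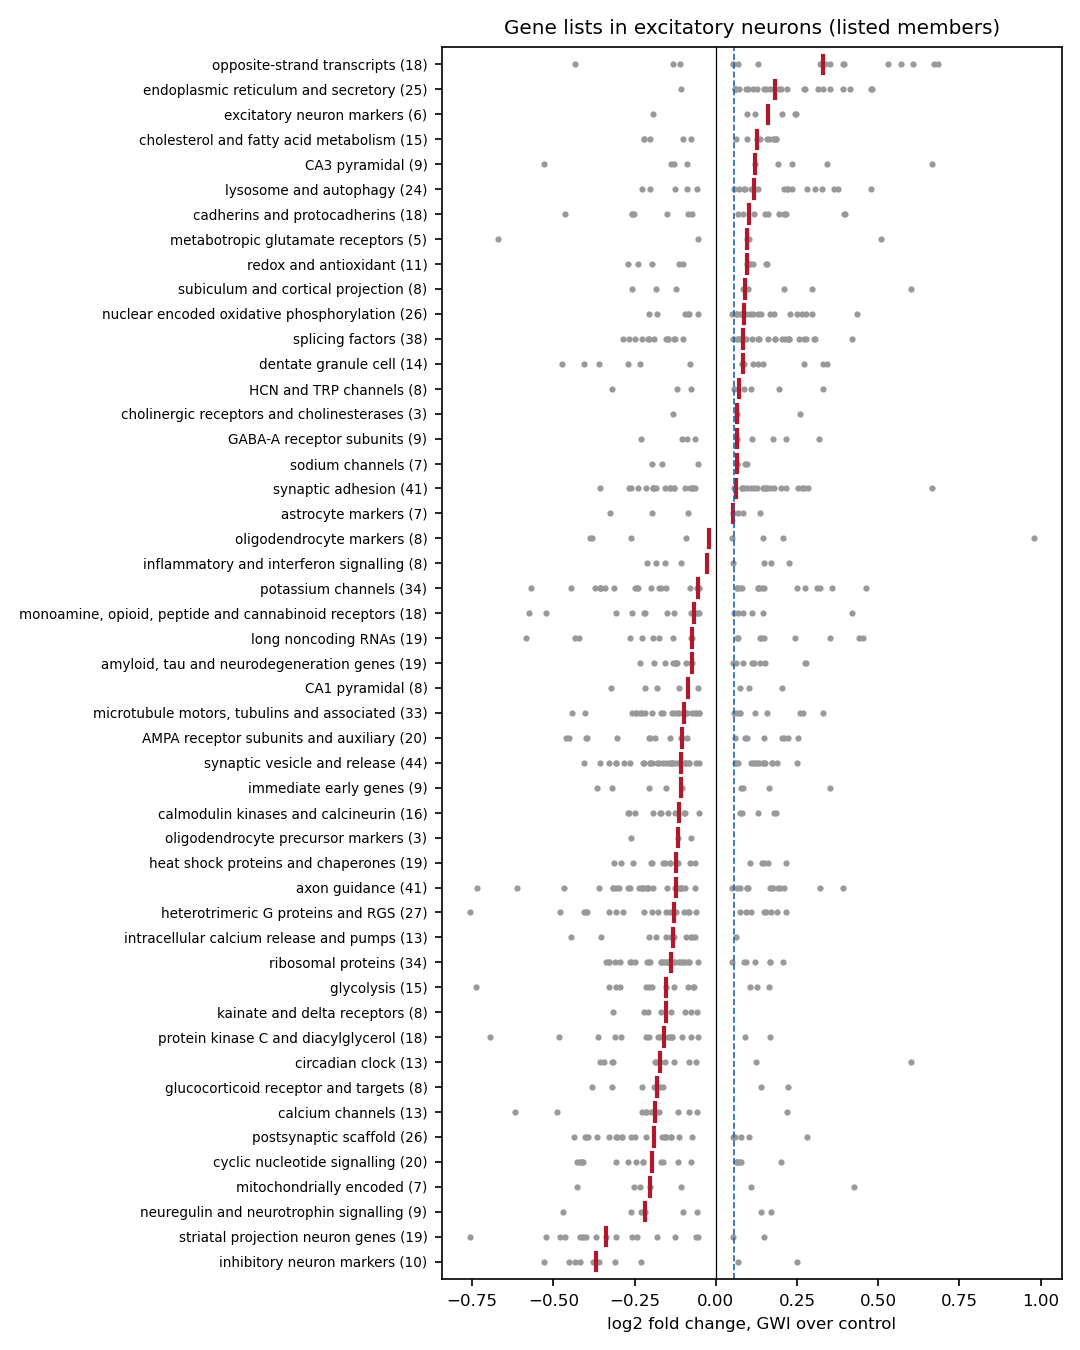
Grey points are the listed members of each gene list (number of members in parentheses) and red bars the list's median log2 fold change of GWI over control in excitatory neurons, with the table's median of 0.058 as a dashed line. Opposite-strand transcripts (0.33) and ER and secretory genes (0.18) have the highest medians and inhibitory neuron markers (-0.37) the lowest.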

How the data were processed

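The deposited tables hold no counts. Per the labels' protocols, nuclei were captured with 10x Genomics 3′ chemistry, version 3.1, with a stated minimum of 25000 reads for each nucleus. Cell Ranger and GRCm38 (mm10) are named in the submitters' processing notes. The labels do not name the software for cell types, doublet removal, free RNA or the deposited comparison. Per the file headers, the authors deposited log2 fold changes of mean expression, whose scaling and pseudocount are not given. They also deposited the fraction of nuclei of each library in which a gene was detected, printed here as a percentage. Their p-values were computed over nuclei of 1 library per group and were not used.

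With 1 library per group no test, standard error or interval was computed, and a log2 fold change of 0.5 or more in size stood in for a test. The members and the 53 gene lists were chosen with earlier results of these data known, and the list of striatal genes and the centring on gene length after the values here had been seen. Lists with at least 3 listed members were described by counts and medians. Genes were named as the 15 highest and 15 lowest of the table, the 10 highest and 10 lowest with a detection of 25% or more in both libraries, and up to 6 members of each list with the largest absolute value. Predicted genes, clones and mitochondrially encoded genes were left out of the rankings. Listed members were named for markers, fields, glutamate receptors, sodium and calcium channels, cholinergic genes and immediate early genes. Some genes that these rules name are not reported here. Members with a promoter match, Nrg3, Sec24d and the predicted genes were named after their values were seen, as were Rpl13a and Rps29 in place of others of their list. A name pattern for opposite-strand transcripts also took in 5 other genes, which were removed.

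Gene lengths and promoter windows came from RefSeq (GRCm38.p6), with a length for 97.3% of the genes. The table also holds 9 Ensembl identifiers without a name that are not in GENCODE M21, so the authors' annotation may differ from these. The list and binning steps were tested on simulated data. Values were computed in Python (3.11.15), using the packages pandas (2.3.3) for tables, numpy (2.4.6), scipy (1.17.1) for ranks and, for figures, matplotlib (3.10.9).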

Additional observations from a re-analysis of the deposited data

Results flagged for a closer look

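Of 4230 genes listed in both the excitatory and the inhibitory neuron table, 8 had log2 fold changes of at least 0.25 in size with opposite signs in the 2 cell types. These differences were not tested, since each table compares the same 1 GWI library with the same 1 control library. C1ql3, which encodes a secreted synaptic protein of the C1q family, was at 0.28 in the excitatory table and -0.42 in the inhibitory table. The transcription factor gene Glis3 was at 0.27 and -0.53, and the predicted gene Gm48530 at 0.26 and -0.34. The other 5 were lower in excitatory and higher in inhibitory neurons. Of these, Slc32a1, the vesicular GABA transporter gene, was at -0.31 and 0.34 and Adarb2, a marker of some interneurons, at -0.38 and 0.34. Cpne7 was at -0.53 and 0.28, the nucleosome-binding protein gene Hmgn1 at -0.29 and 0.35, and the laminin subunit gene Lamb1 at -0.33 and 0.39. In inhibitory neurons C1ql3 was in 9.5% of GWI and 11.1% of control nuclei, and Glis3 in 9.7% and 11.2%. In excitatory neurons Cpne7 was in 8.6% of GWI and 11.3% of control nuclei. With a minimum of 10% in 1 library, these entries were listed only through the control library.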

How the results depend on the processing

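No paired analysis was possible because each group is 1 library, and for the same reason no library could be left out. The 83 higher and 46 lower genes at 0.5 became 608 and 526 at 0.25, 0 and 0 at 1, 51 and 91 after centring on the table's median, 51 and 29 after subtracting the median of the length bin, and 5 and 13 among genes with a detection of 25% or more in both libraries. At that detection the median of all genes was -0.071, in place of 0.058. Without predicted genes, clones and mitochondrially encoded genes 33 were higher. A list's median was counted as keeping its value where its sign held and it moved by less than 0.1. Of 49 lists, the numbers that did so were 48 with centring, 42 with the mean, 37 of 45 with the detection minimum, 35 of 48 with length-centring, 17 with the ratio of detected fractions and 14 with subtraction of other cell types. Under that subtraction the sign turned for CA1 genes (0.036), astrocyte markers (-0.063), precursor markers (0.132), AMPA receptors (0.064), calcium channels (0.013), potassium channels (0.085), HCN and TRP channels (-0.091), calcium release (0.049), calmodulin kinases (0.075), cyclic nucleotide genes (0.015), G proteins (0.001), protein kinase C (0.012), monoamine and peptide receptors (0.108), vesicle genes (0.065), postsynaptic scaffold genes (0.021), axon guidance genes (0.019), neuregulins (0.026), glycolysis (0.086), oxidative phosphorylation (-0.051), chaperones (0.006), ER genes (-0.087), long noncoding RNAs (0.02), microtubule genes (0.016), neurodegeneration genes (0.032), lysosome genes (-0.066) and cholesterol genes (-0.08). It moved without turning for inhibitory neuron markers (-0.12), oligodendrocyte markers (-0.166), kainate receptors (-0.034), cholinergic genes (0.182), glucocorticoid genes (-0.053), clock genes (-0.032), mitochondrially encoded genes (-0.051), opposite-strand transcripts (0.1) and striatal genes (-0.015). With the log2 ratio of detected fractions the sign turned for CA1 genes (0.063), oligodendrocyte markers (0.054), precursor markers (0.013), AMPA receptors (0.002), potassium channels (0.01), calcium release (0.008), calmodulin kinases (0.049), G proteins (0.018), protein kinase C (0.005), monoamine and peptide receptors (0.015), immediate early genes (0.022), vesicle genes (0.021), axon guidance genes (0.011), glycolysis (0.022), chaperones (0.032), clock genes (0.014), long noncoding RNAs (0.004), microtubule genes (0.034), neurodegeneration genes (0.065), inflammatory genes (0.135) and ribosomal proteins (0.035). It moved for inhibitory neuron markers (-0.162), kainate receptors (-0.004), calcium channels (-0.002), cyclic nucleotide genes (-0.001), postsynaptic scaffold genes (-0.017), neuregulins (0.0), oxidative phosphorylation (0.24), glucocorticoid genes (-0.011), redox genes (0.206), mitochondrially encoded genes (-0.025) and striatal genes (-0.166). With length-centring it turned for astrocyte markers (-0.006), sodium channels (-0.051), potassium channels (0.021), oxidative phosphorylation (-0.03) and redox genes (-0.015) and moved for dentate genes (0.193), precursor markers (-0.006), metabotropic receptors (0.206), cholinergic genes (0.176), neuregulins (-0.109), lysosome genes (0.015), ribosomal proteins (-0.256) and opposite-strand transcripts (0.206). With the mean, it turned for dentate genes (-0.023), astrocyte markers (-0.038), oligodendrocyte markers (0.033), metabotropic receptors (-0.004), sodium channels (-0.014) and redox genes (-0.017) and moved for mitochondrially encoded genes (-0.098). With the detection minimum it turned for CA1 genes (0.074), subicular genes (-0.051), astrocyte markers (-0.085), synaptic adhesion genes (-0.004) and opposite-strand transcripts (-0.032) and moved for CA3 genes (0.016), lysosome genes (0.222) and inflammatory genes (-0.171). Centring turned astrocyte markers (-0.006). The ratio of detected fractions was not centred, and 80.0% of all genes were found in more GWI nuclei. The causes of these changes were not tested. Depth is unknown, so no precision can be given, and most differences here are smaller than 0.25 in size.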
